A study of Sus scrofa with 3 samples.

Results

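The genes described here encode the proteins of the mitochondrial ribosome and of the machinery that brings nuclear-encoded proteins into mitochondria. They were taken by symbol, as all gene IDs of the count tables whose pig symbol begins with MRPL or MRPS and a number, with TIMM or with TOMM. This gave 60 of 25322 gene IDs: 30 MRPL genes, 14 MRPS genes, 8 TIMM genes and 8 TOMM genes. MRPL and MRPS stand for the large and the small ribosome subunit, with MRPS18A as an exception described further on. The symbol table holds 87 symbols that match, and those without an ID in the count tables, such as MRPL12, MRPS22, TIMM10 and TIMM17A, were not analysed here. Of the 60 genes, 59 reached a CPM of at least 1 in at least 1 library, the level taken as expressed. CPM is the count of a gene scaled to a common library total, after a TMM factor for each library. TOMM20L, a paralogue of TOMM20, was the exception, with 1 count in Enshi black and none in Chinese wild boar and Large White.

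RNA of whole liver came from 3 male pigs at postnatal day 90, an Enshi black pig (a Chinese local breed), a Chinese wild boar and a Large White pig (a European commercial breed). The labels name no treatment, and each breed has 1 library, read here as 1 animal. Breed, animal and library therefore cannot be told apart, no p-value is given, and every comparison is between these 3 libraries. The libraries held 20654571 gene counts for Enshi black, 20215871 for Chinese wild boar and 19982627 for Large White.

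Mitochondria make a small set of respiratory chain subunits from their own genome, on ribosomes whose proteins are all encoded in the nucleus and imported. Imported proteins are recognised by receptors of the outer membrane, cross it through the TOMM40 channel, and are sorted by the TIM23 and TIM22 complexes of the inner membrane or by small chaperones between the membranes. Liver cells are rich in mitochondria, so both machineries are part of their basic equipment.

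In whole tissue, fewer cells of a type and less RNA per cell cannot be told apart. Of 10 hepatocyte marker IDs, 9 were expressed. By the 2-fold rule defined further on, 2 were higher and 2 lower for Enshi black over Large White, where 4.73% and 8.36% of expressed genes were. Intervals for that pair lay above 1 for 5 of the 9 and below 1 for 4, where 35.7% and 35.4% of expressed genes did. These intervals cover counting error only, so genes with many counts clear 1 at small folds. The summed level was 119222 CPM in Enshi black, 116961 CPM in Chinese wild boar and 85304 CPM in Large White. ALB alone was at 66555 CPM in Enshi black, 53772 CPM in Chinese wild boar and 25234 CPM in Large White. APOA1 was at 0 to 2 counts per library, although it is an abundant liver gene, which limits what its ID can show. Summed markers of stellate cells and fibroblasts (6 IDs) were at 1053 CPM in Enshi black, 552 CPM in Chinese wild boar and 331 CPM in Large White. Those of neutrophils (3 IDs) were at 6.86 CPM in Enshi black, 6.59 CPM in Chinese wild boar and 35.7 CPM in Large White, those of T and NK cells (7 IDs) at 117 CPM in Enshi black, 54.1 CPM in Chinese wild boar and 118 CPM in Large White, and those of red cells (2 IDs) at 44.3 CPM in Enshi black, 186 CPM in Chinese wild boar and 105 CPM in Large White. The neutrophil sum was mostly CSF3R, at 6.03 CPM in Enshi black, 4.51 CPM in Chinese wild boar and 33.8 CPM in Large White. Of 6 expressed T and NK cell IDs, 2 (CD2 and CD3D) had intervals above 1 for Enshi black over Large White. Another 2 (CD8A and NKG7) had intervals below 1, where 35.7% of expressed genes lay above and 35.4% below. The markers of red cells did not share an order, with HBB at 36.5 CPM in Enshi black, 183 CPM in Chinese wild boar and 102 CPM in Large White and ALAS2 at 7.74 CPM in Enshi black, 3.44 CPM in Chinese wild boar and 2.91 CPM in Large White. Summed markers of Kupffer cells and macrophages (6 IDs) were at 1502 CPM in Enshi black, 1735 CPM in Chinese wild boar and 1914 CPM in Large White, with CD14 and C1QA making up most of the sum. Of these 6 markers, 3 passed as lower in Enshi black against Large White, namely CSF1R at 15.6 CPM in Enshi black, 55.8 CPM in Chinese wild boar and 111 CPM in Large White, LYZ at 1.16 CPM in Enshi black, 3.29 CPM in Chinese wild boar and 7.7 CPM in Large White and MARCO at 21.4 CPM in Enshi black, 29 CPM in Chinese wild boar and 84.8 CPM in Large White, and the median log2 fold of the 6 was -1.19. Summed markers of endothelium (4 IDs) were at 501 CPM in Enshi black, 387 CPM in Chinese wild boar and 738 CPM in Large White. STAB1 alone was at 186 CPM in Enshi black, 169 CPM in Chinese wild boar and 498 CPM in Large White, while KDR, LYVE1 and PECAM1 had intervals above 1 for Enshi black over Large White, and the median log2 fold of the 4 was 0.24. Summed markers of bile duct cells (3 IDs) were within 7.45 to 8.0 CPM in all libraries, but the markers did not share an order. SOX9 was at 4.22 CPM in Enshi black, 2.58 CPM in Chinese wild boar and 3.37 CPM in Large White. CFTR was at 1.62 CPM in Enshi black, 2.68 CPM in Chinese wild boar and 1.68 CPM in Large White, and EPCAM at 1.62 CPM, 2.74 CPM and 2.4 CPM in the same order. The single muscle marker ID was at 0 to 0.232 CPM. The part of cell make-up in the differences below was not tested.

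The ribosome and import genes were highest in Chinese wild boar in 38 of 59 cases, highest in Enshi black in 12 and highest in Large White in 9. Among all 13224 expressed genes the same library was highest in 30%, 37.2% and 32.8%. Chinese wild boar was lowest for none of the 59 genes, against 29.5% of expressed genes, while Enshi black was lowest for 23 (36.4% of expressed genes) and Large White for 36 (34.1%). With total counts in place of TMM scaling, Chinese wild boar was highest for 30, Enshi black for 20 and Large White for 9, and Chinese wild boar was lowest for 1. With intervals clear of 1 against both others, Enshi black was above for 6 genes and below for 19, where 22.3% and 23.4% of expressed genes were. By the same measure Chinese wild boar was above for 24 and below for 0 (16.2% and 13.3%), and Large White was above for 3 and below for 20 (19% and 18.2%). Together the 60 IDs held 0.192% of gene counts in Enshi black (95% exact Clopper-Pearson interval 0.190 to 0.194), 0.231% in Chinese wild boar (0.229 to 0.234) and 0.196% in Large White (0.194 to 0.198).

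**Figure D1:**
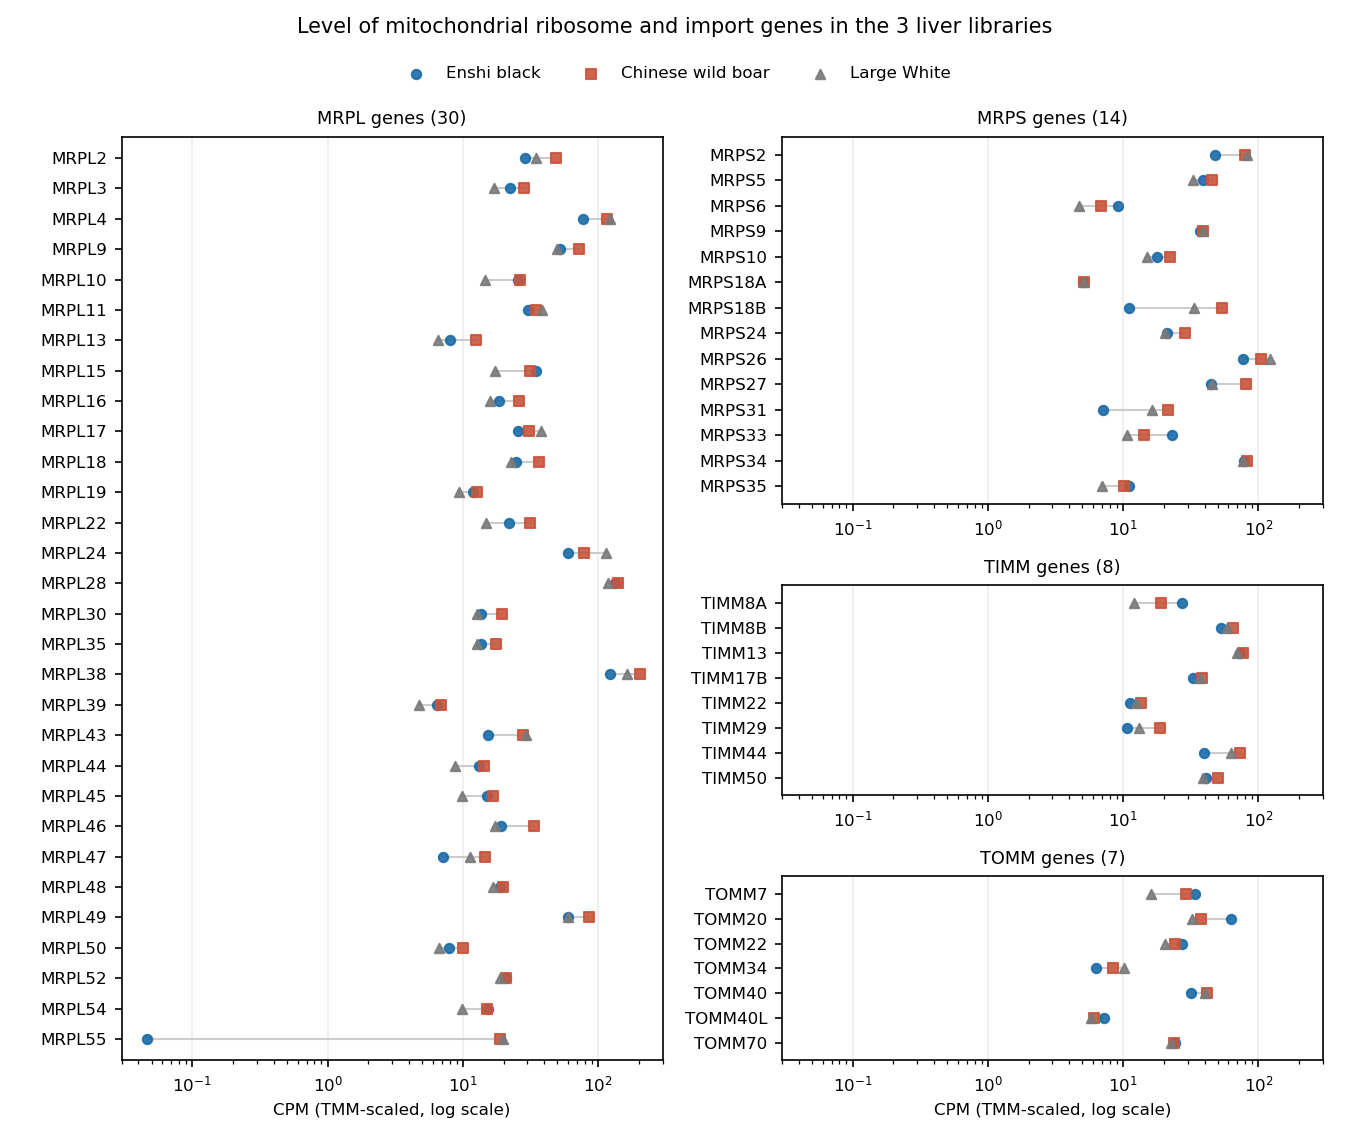
Level of each expressed gene in CPM (log scale) in the libraries of Enshi black (circles), Chinese wild boar (squares) and Large White (triangles), 1 library each, with a grey line over the range. Chinese wild boar is the highest point for 38 of 59 genes and the lowest for none, and MRPL55 in Enshi black lies far to the left at 0.0464 CPM.

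Most of these differences were small. The ratio of the highest to the lowest library had a median of 1.58 over the 59 genes, against 1.69 over all expressed genes, and it was above 2 for 9 of them, or 15.3%, against 35.1% of expressed genes. A gene was called different between a pair of libraries when the 95% exact binomial interval of its fold, which covers counting error only, lay at least 2-fold away from 1. By that size rule, for Enshi black against Large White, 0 of the 59 genes were higher and 2 lower, where 4.73% and 8.36% of expressed genes passed. In Chinese wild boar against Large White 0 were higher and 0 lower (2.99% and 3.71% of expressed genes). In Enshi black against Chinese wild boar 0 were higher and 3 lower (3.98% and 7.17%). The shares called were thus near or below those of expressed genes at large. These comparisons share libraries with each other.

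The genes that passed were MRPL55, MRPS18B and MRPS31, all lower in Enshi black. MRPL55 (ENSSSCG00000029050) encodes a large subunit protein found in animals and not in bacteria. It had 1 count in Enshi black (0.0464 CPM), 371 counts in Chinese wild boar (18.8 CPM) and 388 counts in Large White (19.8 CPM). The fold of Enshi black against Large White was 0.00234, or 427-fold (76.2 to 16906) lower, and against Chinese wild boar it was 405-fold (72.3 to 16052) lower, both from a single count. It was 1 of 47 gene IDs at 3 counts or fewer in Enshi black while both other libraries had 5 CPM or more, and 1 ID each was in that state in Chinese wild boar and in Large White. Its nearest neighbour in the RefSeq annotation of Sscrofa11.1, a later build than that of the counts, is the guanylate kinase gene GUK1, which had 28.9 CPM in Enshi black, 47.7 CPM in Chinese wild boar and 41.2 CPM in Large White. GUK1 was counted in every library, and in Enshi black it was 1.43-fold (1.28 to 1.59) lower than in Large White. Against Chinese wild boar it was 1.65-fold (1.49 to 1.83) lower. The cause of the near absence of MRPL55 counts in Enshi black was not tested.

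MRPS18B (ENSSSCG00000029425) encodes 1 of 3 mammalian proteins related to bacterial ribosomal protein S18. It had 11.1 CPM in Enshi black, 53.7 CPM in Chinese wild boar and 33.5 CPM in Large White. Enshi black was 3.02-fold (2.6 to 3.52) lower than Large White and 4.85-fold (4.21 to 5.6) lower than Chinese wild boar, and Chinese wild boar was 1.61-fold (1.46 to 1.77) higher than Large White. In the same annotation its span overlaps that of PPP1R10, a phosphatase regulator gene, which had 75.5 CPM in Enshi black, 79.5 CPM in Chinese wild boar and 47.8 CPM in Large White. The related MRPS18A, which despite its symbol sits in the large subunit in mammals, was at 5.05 CPM in Enshi black, 5.12 CPM in Chinese wild boar and 5.1 CPM in Large White. The libraries could not be separated for MRPS18A at 100 to 109 counts, with a fold of 0.991 (0.748 to 1.31) for Enshi black over Large White.

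MRPS31 (ENSSSCG00000009372), another small subunit protein absent from bacteria, had 7.05 CPM in Enshi black, 21.4 CPM in Chinese wild boar and 16.4 CPM in Large White. It passed as lower in Enshi black than in Chinese wild boar, 3.03-fold (2.51 to 3.68). Against Large White it was 2.32-fold (1.91 to 2.84) lower and stayed just outside the rule, with a near bound of 1.91. TIMM8A was the other gene just outside, with a near bound of 1.95. Between Chinese wild boar and Large White the genes nearest to the rule were MRPL22 and MRPL46, with near bounds of 1.84 and 1.70. Between Enshi black and Chinese wild boar they were MRPL47 and TIMM44, with near bounds of 1.69 and 1.67.

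**Figure D2:**
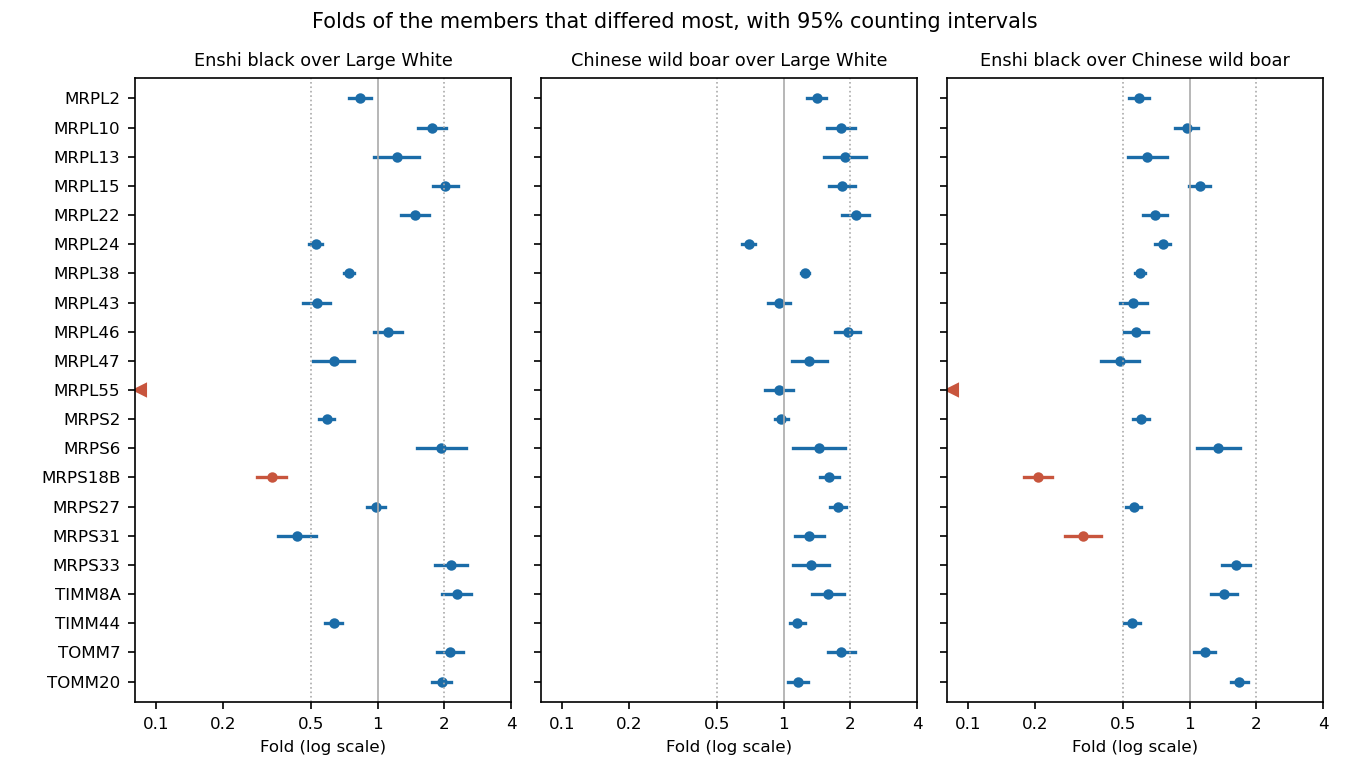
Fold (log scale) with its 95% counting interval for the genes whose interval lay at least 1.5-fold away from 1 in at least 1 pair of libraries. Red marks pass the 2-fold rule (dotted lines), and arrows at the left edge stand for MRPL55, whose fold of 0.00234 or 0.00247 is off the axis.

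The MRPL genes were mostly higher in Chinese wild boar than in Large White. Of 30 genes, 24 had a log2 fold above 0 (50.6% of expressed genes), and 23 had an interval wholly above 1 against 2 wholly below. The median log2 fold was 0.52, against 0.01 for all expressed genes. Over the expressed genes as a whole, intervals lay wholly above 1 in 31.2% and wholly below in 30%.

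Among the proteins that line or surround the exit tunnel, MRPL22 had 22 CPM in Enshi black, 31.5 CPM in Chinese wild boar and 14.9 CPM in Large White. It stood 2.11-fold (1.84 to 2.44) higher than Large White in Chinese wild boar and 1.48-fold (1.27 to 1.71) higher than Large White in Enshi black. MRPL45, which tethers the ribosome to the inner membrane in mammals, was at 15.1 CPM in Enshi black, 16.8 CPM in Chinese wild boar and 9.85 CPM in Large White, so Large White was the low library and the other two were close together. MRPL24 went the other way, with 59.7 CPM in Enshi black, 79.1 CPM in Chinese wild boar and 114 CPM in Large White. Large White was the high library for MRPL24, and the fold was 0.524 (0.489 to 0.561) for Enshi black over Large White and 0.694 (0.651 to 0.741) for Chinese wild boar over Large White. MRPL4, also a tunnel protein, was 1.58-fold (1.48 to 1.68) lower than Large White in Enshi black, at 77.3 CPM in Enshi black, 115 CPM in Chinese wild boar and 122 CPM in Large White.

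MRPL10 carries the stalk that recruits translation factors. It had 25.4 CPM in Enshi black, 26.2 CPM in Chinese wild boar and 14.5 CPM in Large White, and stood 1.75-fold (1.51 to 2.03) higher than Large White in Enshi black and 1.81-fold (1.56 to 2.1) higher than Large White in Chinese wild boar. MRPL11, at the stalk base, had 30.1 CPM in Enshi black, 34.8 CPM in Chinese wild boar and 38.3 CPM in Large White, a different order of the libraries. MRPL15, a core protein, had 35 CPM in Enshi black, 31.6 CPM in Chinese wild boar and 17.3 CPM in Large White. Enshi black was 2.02-fold (1.78 to 2.31) higher than Large White for MRPL15, and Chinese wild boar 1.83-fold (1.6 to 2.09) higher than Large White. For MRPL10 and MRPL15 Large White was thus the low library, and the fold of Enshi black over Chinese wild boar was 0.967 (0.856 to 1.09) and 1.11 (0.995 to 1.23).

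MRPL3 and MRPL2 are related to bacterial proteins of the catalytic core. MRPL3 had 22.5 CPM in Enshi black, 28.2 CPM in Chinese wild boar and 17.1 CPM in Large White. MRPL2 had 28.8 CPM in Enshi black, 48.7 CPM in Chinese wild boar and 34.6 CPM in Large White, with Chinese wild boar above both others. MRPL38, of the central protuberance, had 122 CPM in Enshi black, 204 CPM in Chinese wild boar and 164 CPM in Large White, and Enshi black was 1.68-fold (1.6 to 1.77) lower than Chinese wild boar. MRPL28 had 134 CPM in Enshi black, 141 CPM in Chinese wild boar and 117 CPM in Large White.

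MRPL46 and MRPL13 were further genes with Chinese wild boar clearly on top. MRPL46 had 19.2 CPM in Enshi black, 33.5 CPM in Chinese wild boar and 17.2 CPM in Large White, and MRPL13 had 8.02 CPM in Enshi black, 12.5 CPM in Chinese wild boar and 6.58 CPM in Large White. Chinese wild boar was 1.94-fold (1.7 to 2.22) higher than Large White for MRPL46 and 1.89-fold (1.52 to 2.36) higher than Large White for MRPL13. The fold of Enshi black over Large White had an interval that spanned 1 for both genes, 1.11 (0.962 to 1.29) and 1.22 (0.965 to 1.54). MRPL47 had 7.09 CPM in Enshi black, 14.6 CPM in Chinese wild boar and 11.2 CPM in Large White, and Enshi black was the low library.

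MRPL43 had 15.4 CPM in Enshi black, 27.8 CPM in Chinese wild boar and 29.2 CPM in Large White, and Enshi black was 1.89-fold (1.65 to 2.17) lower than Large White. Its annotated span overlaps that of TWNK, the gene of the mitochondrial DNA helicase, which had 19.4 CPM in Enshi black, 40.2 CPM in Chinese wild boar and 14.6 CPM in Large White. TWNK passed the size rule as higher in Chinese wild boar than in Large White, while the fold of MRPL43 there was 0.951 (0.844 to 1.07). Reads of overlapping genes can be dropped or misassigned. These spans are from the RefSeq annotation of Sscrofa11.1, a later build than that of the counts. There the spans of 20 of the 60 genes overlap another gene, and the share among all genes was not determined.

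The remaining MRPL genes followed the same range. MRPL9, MRPL16, MRPL18, MRPL30, MRPL35, MRPL49 and MRPL50 were in Chinese wild boar above both other libraries, with intervals clear of 1. MRPL49, for example, had 60.0 CPM in Enshi black, 85.5 CPM in Chinese wild boar and 59.8 CPM in Large White. MRPL19, MRPL39, MRPL44 and MRPL54 were in Large White below both others, with MRPL44, an RNase III-like protein, at 13.1 CPM in Enshi black, 14.4 CPM in Chinese wild boar and 8.72 CPM in Large White. MRPL17 was lowest in Enshi black and highest in Large White, at 25.4 CPM in Enshi black, 31 CPM in Chinese wild boar and 38.1 CPM in Large White. MRPL48 and MRPL52 differed little, with MRPL52 at 21 CPM in Enshi black, 20.7 CPM in Chinese wild boar and 18.7 CPM in Large White.

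The 14 MRPS genes, MRPS18A among them, had a median log2 fold of 0.43 for Chinese wild boar over Large White, with 12 of 14 above 0 (50.6% of expressed genes). MRPS27, which has a fold of repeated helices that bind RNA, had 44.9 CPM in Enshi black, 80.4 CPM in Chinese wild boar and 45.6 CPM in Large White. Chinese wild boar was 1.76-fold (1.62 to 1.92) higher than Large White for MRPS27, and the fold of Enshi black over Large White was 0.984 (0.898 to 1.08). MRPS5, MRPS10 and MRPS24 were also in Chinese wild boar above both others, with MRPS24 at 21 CPM in Enshi black, 28.9 CPM in Chinese wild boar and 20.5 CPM in Large White. MRPS2 and MRPS26 were the exceptions, and MRPS26 had 77.2 CPM in Enshi black, 104 CPM in Chinese wild boar and 121 CPM in Large White.

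In Enshi black against Large White 7 of the 14 MRPS genes were above 0, near the 50.7% of expressed genes. MRPS33 had 23.1 CPM in Enshi black, 14.3 CPM in Chinese wild boar and 10.8 CPM in Large White, and Enshi black was 2.14-fold (1.82 to 2.53) higher than Large White. MRPS6, related to bacterial protein S6, had 9.18 CPM in Enshi black, 6.84 CPM in Chinese wild boar and 4.75 CPM in Large White, and MRPS35 11.1 CPM in Enshi black, 10.2 CPM in Chinese wild boar and 6.99 CPM in Large White. For MRPS33 and MRPS6 the libraries were in the order Enshi black, Chinese wild boar, Large White, each clear of the next. MRPS2 had 48.1 CPM in Enshi black, 80.0 CPM in Chinese wild boar and 82 CPM in Large White, with Enshi black 1.7-fold (1.57 to 1.84) lower than Large White. MRPS9 and MRPS34 were level across the libraries, with MRPS34 at 78 CPM in Enshi black, 81.7 CPM in Chinese wild boar and 77.4 CPM in Large White and MRPS9 at 37 CPM in Enshi black, 39.2 CPM in Chinese wild boar and 38.9 CPM in Large White.

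At the outer membrane, TOMM20 and TOMM22 are receptors for proteins with a targeting presequence. TOMM20 had 62.7 CPM in Enshi black, 37.5 CPM in Chinese wild boar and 32.3 CPM in Large White. Enshi black was 1.94-fold (1.77 to 2.14) higher than Large White and 1.67-fold (1.53 to 1.83) higher than Chinese wild boar for TOMM20. TOMM22 had 27.3 CPM in Enshi black, 24 CPM in Chinese wild boar and 20.4 CPM in Large White, the same order with smaller steps. TOMM70, the receptor for carrier proteins and other clients of cytosolic chaperones, had 24 CPM in Enshi black, 23.6 CPM in Chinese wild boar and 22.5 CPM in Large White, and no pair of libraries was separable by counting error.

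TOMM40, the channel itself, had 31.6 CPM in Enshi black, 41.9 CPM in Chinese wild boar and 40.2 CPM in Large White. Here Enshi black was the low library, 1.27-fold (1.15 to 1.41) lower than Large White, and the interval of Chinese wild boar over Large White spanned 1. TOMM7, a small subunit that shapes the complex and in humans holds the kinase PINK1 there, had 34.1 CPM in Enshi black, 29.2 CPM in Chinese wild boar and 16 CPM in Large White. Enshi black was 2.13-fold (1.86 to 2.44) higher than Large White and Chinese wild boar 1.82-fold (1.58 to 2.1) higher than Large White for TOMM7. TOMM34, a cytosolic cochaperone and not a membrane subunit, was lowest in Enshi black, with 6.31 CPM in Enshi black, 8.41 CPM in Chinese wild boar and 10.2 CPM in Large White. TOMM40L, a paralogue of the channel gene, had 7.23 CPM in Enshi black, 6.13 CPM in Chinese wild boar and 5.77 CPM in Large White, with every interval spanning 1.

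The 7 expressed TOMM genes were the group in which Enshi black was most often highest. It was highest for 5 of 7, against 37.2% of expressed genes. The median log2 fold over Chinese wild boar was 0.18, while the medians of the MRPL, MRPS and TIMM genes were -0.39, -0.26 and -0.27. In that pair 3 of the 7 intervals lay above 1, 2 below, and 2 spanned 1, where 33.2% of expressed genes lay above and 34.8% below. The summed level of the TOMM genes was 193 CPM in Enshi black, 171 CPM in Chinese wild boar and 147 CPM in Large White. TOMM20 alone was at 62.7 CPM in Enshi black, 37.5 CPM in Chinese wild boar and 32.3 CPM in Large White. With total counts TOMM40 and TOMM34 were the ones of the 7 below 1 for Enshi black over Large White, as with TMM scaling. The difference between TOMM and other genes was not tested.

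At the inner membrane, TIMM44, which binds the motor chaperone HSPA9 to the TIM23 channel, had 39.9 CPM in Enshi black, 72.6 CPM in Chinese wild boar and 63 CPM in Large White. Enshi black was 1.58-fold (1.45 to 1.73) lower than Large White and 1.82-fold (1.67 to 1.98) lower than Chinese wild boar. TIMM50, the receptor of the same complex, had 41.1 CPM in Enshi black, 49.8 CPM in Chinese wild boar and 38.7 CPM in Large White, and the channel subunit TIMM17B had 32.6 CPM in Enshi black, 38.5 CPM in Chinese wild boar and 36.8 CPM in Large White. Those 2 genes stayed within narrow ranges, as did TIMM22, the carrier translocase, with 11.3 CPM in Enshi black, 13.6 CPM in Chinese wild boar and 12.5 CPM in Large White. TIMM29, a partner of TIMM22, had 10.7 CPM in Enshi black, 18.8 CPM in Chinese wild boar and 13 CPM in Large White, and Enshi black was 1.76-fold (1.49 to 2.09) lower than Chinese wild boar.

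The small chaperones between the membranes did not move together. TIMM8A, whose loss in humans causes a deafness and dystonia syndrome, had 27.2 CPM in Enshi black, 19 CPM in Chinese wild boar and 12 CPM in Large White. Enshi black was 2.27-fold (1.95 to 2.65) higher than Large White and Chinese wild boar 1.59-fold (1.35 to 1.88) higher than Large White for TIMM8A. Its paralogue TIMM8B had 53 CPM in Enshi black, 64.8 CPM in Chinese wild boar and 59 CPM in Large White, with folds of 0.897 (0.826 to 0.974) and 1.1 (1.01 to 1.19) against Large White. TIMM13, the partner of TIMM8A, had 72.8 CPM in Enshi black, 76.5 CPM in Chinese wild boar and 69.4 CPM in Large White. With total counts TIMM8A passed the size rule for Enshi black over Large White, at 2.42-fold. All 8 TIMM genes lay above 0 in Chinese wild boar against Large White with TMM, DESeq2 and total-count scaling, with a median log2 fold of 0.17.

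Over all 59 genes the median log2 fold was 0.09 for Enshi black over Large White, 0.40 for Chinese wild boar over Large White and -0.29 for Enshi black over Chinese wild boar. The medians of all expressed genes were 0.01, 0.01 and 0.00. In Chinese wild boar against Large White 50 of 59 genes lay above 0 (50.6% of expressed genes), and 41 had intervals wholly above 1 while 3 (MRPL17, MRPL24 and MRPS26) lay wholly below. In Enshi black against Chinese wild boar 47 of 59 lay below 0, where 49.8% of expressed genes did, and 6 intervals lay wholly above 1 and 36 wholly below (33.2% and 34.8%). The count below 0 was 39 with total counts, which moves the median of all expressed genes to 0.10. In Enshi black against Large White 36 lay above 0 (50.7% of expressed genes) and 23 below, with 20 intervals wholly above 1 and 19 wholly below (35.7% and 35.4% of expressed genes).

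**Figure D3:**
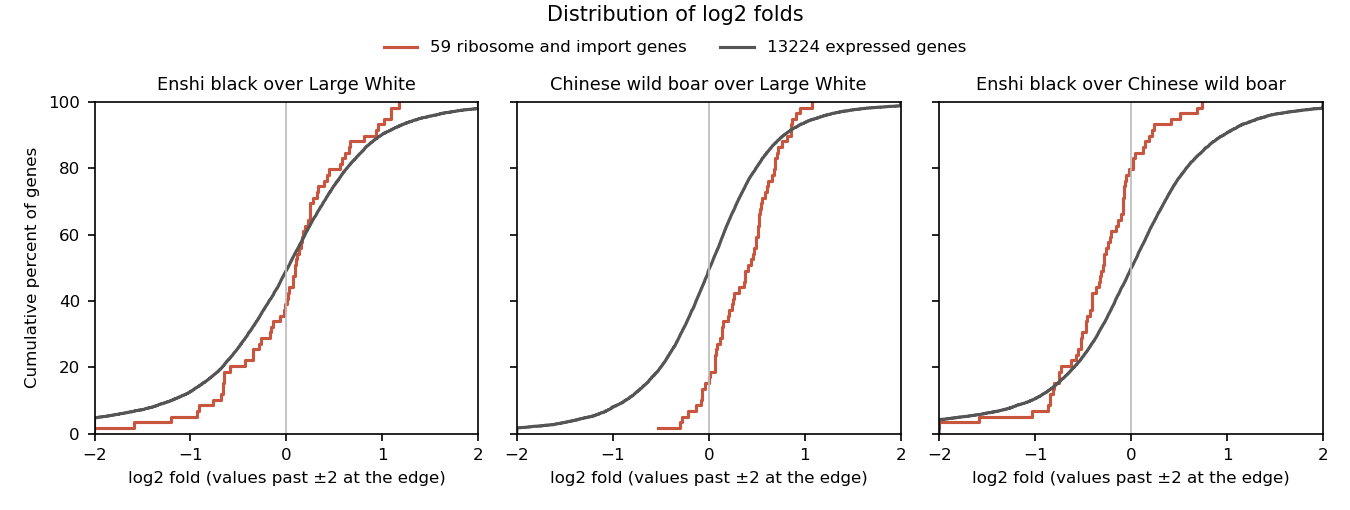
Cumulative percent of genes by log2 fold for the 59 ribosome and import genes (red) and all 13224 expressed genes (grey), 1 panel per pair of libraries. The red curve lies right of the grey one around its centre for Chinese wild boar over Large White (medians 0.40 and 0.01) and left of it for Enshi black over Chinese wild boar (medians -0.29 and 0.00).

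For Enshi black over Large White the median differed in direction from the mean and the summed level. The mean log2 fold was -0.07. It includes MRPL55 at -7.10, from 1 count in Enshi black, where the next lowest gene, MRPS18B, was at -1.59. The summed level of the 60 IDs was 1836 CPM in Enshi black and 1997 CPM in Large White, a fold of 0.919 (0.906 to 0.932). Genes with many counts weigh most in the sum. Of the 8 with the most counts in Large White, MRPL38, MRPL4, MRPS26, MRPL24 and MRPS2 had intervals below 1 for Enshi black over Large White, MRPL28 had one above 1, at a fold of 1.14 (1.08 to 1.21), and those of MRPS34 and TIMM13 spanned 1. TOMM20, with 1353 counts in Enshi black and 633 counts in Large White, also ran against the sum. The summed level was 2370 CPM in Chinese wild boar, a fold over Large White of 1.19 (1.17 to 1.2). In total counts and with TMM alike the ratio of Enshi black to Chinese wild boar was below 1, at 0.774 (0.764 to 0.785) with TMM.

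At a lower bar of 1.5-fold, 7 genes were higher and 6 lower in Enshi black relative to Large White, where 11.7% and 14.8% of expressed genes passed. The higher ones were MRPL10, MRPL15, MRPS6, MRPS33, TIMM8A, TOMM7 and TOMM20, and the lower ones MRPL24, MRPL43, MRPL55, MRPS2, MRPS18B and MRPS31. In Chinese wild boar against Large White 7 genes were higher and 0 lower (7.55% and 8.47%). They were MRPL10, MRPL13, MRPL15, MRPL22, MRPL46, MRPS27 and TOMM7. In Enshi black against Chinese wild boar TOMM20 was the 1 gene higher and 11 were lower (9.77% and 12.8%).

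These genes have short genomic spans. In the RefSeq assembly Sscrofa11.1, 43 of the 59 fall in the shortest 3 of 10 equal groups of expressed genes with a symbol, and folds in these libraries vary with span. In the shortest group the median log2 fold of all genes was -0.13 for Enshi black over Large White, 0.08 for Chinese wild boar over Large White and -0.18 for Enshi black over Chinese wild boar. Centred on the median of their span group, the 59 genes had medians of 0.17, 0.37 and -0.18. The pooled median for Chinese wild boar over Large White thus changed little, and that for Enshi black over Chinese wild boar became smaller in size. The span groups differed, however. In the shortest group, with 22 of the 59 genes, the median for Chinese wild boar over Large White was 0.13, against 0.08 for all genes there. In the next group, with 12 of them, it was 0.63, against 0.08.

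Other genes of mitochondrial protein synthesis and import were read against the shares of expressed genes that passed, which were 4.73% higher and 8.36% lower for Enshi black over Large White, 2.99% and 3.71% for Chinese wild boar over Large White, and 3.98% and 7.17% for Enshi black over Chinese wild boar. At these shares a list of so few genes would hold few calls or none. None of 17 expressed import partners passed in any pair, with medians of 0.37, 0.27 and -0.17 in the order of comparisons above. Among them the motor chaperone HSPA9 had 489 CPM in Enshi black, 479 CPM in Chinese wild boar and 348 CPM in Large White, and the folding chaperone HSPD1 493 CPM in Enshi black, 551 CPM in Chinese wild boar and 500.4 CPM in Large White. None of 12 translation factors and related genes passed either (medians 0.44, 0.27 and 0.08), with the elongation factors TUFM at 170.3 CPM in Enshi black, 269.9 CPM in Chinese wild boar and 176 CPM in Large White and GFM1 at 51.6 CPM in Enshi black, 48.8 CPM in Chinese wild boar and 30.0 CPM in Large White. Of 4 ribosome proteins and partners with other symbols none passed, PTCD3 being at 39.8 CPM in Enshi black, 48.2 CPM in Chinese wild boar and 41.9 CPM in Large White.

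Of 16 expressed ribosome assembly factors, 0 passed against Large White in either other library and 2 were lower in Enshi black than in Chinese wild boar (7.17% of expressed genes). They were the ribosomal RNA methyltransferase gene MRM1, with 199 CPM in Enshi black, 478 CPM in Chinese wild boar and 236 CPM in Large White, and the pseudouridine synthase gene TRUB2, with 11.8 CPM in Enshi black, 30.4 CPM in Chinese wild boar and 17.7 CPM in Large White. Of 10 regulators of mitochondrial biogenesis, 0 were higher and 1 lower for Enshi black over Large White, and 1 was higher and 2 lower for Chinese wild boar over Large White, where 8.36% of expressed genes were lower in the first pair and 2.99% and 3.71% were higher and lower in the second. The coactivator PPARGC1B was lower against Large White in both, at 1.81 CPM in Enshi black, 2.43 CPM in Chinese wild boar and 7.35 CPM in Large White. TWNK was the higher gene, and MYC was lower in Chinese wild boar, at 68.2 CPM in Enshi black, 31.3 CPM in Chinese wild boar and 104 CPM in Large White. For Enshi black over Chinese wild boar 0 of the 10 were higher and 1 lower (3.98% and 7.17% of expressed genes). The lower gene was TFB2M, a factor for transcription of mitochondrial DNA. It was at 0.742 CPM in Enshi black, 3.24 CPM in Chinese wild boar and 1.99 CPM in Large White. These levels rest on few counts, 16 in Enshi black, 64 in Chinese wild boar and 39 in Large White. Of 5 expressed mitochondrial stress genes, 0 were higher and 0 lower for Enshi black over Large White (4.73% and 8.36% of expressed genes). For Chinese wild boar over Large White 1 was higher and 0 lower (2.99% and 3.71%). For Enshi black over Chinese wild boar 0 were higher and 1 lower (3.98% and 7.17%). The gene was ATF5 both times, a transcription factor of the mitochondrial stress response. It had 571 CPM in Enshi black, 1220.4 CPM in Chinese wild boar and 509 CPM in Large White.

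The messages that mitochondrial ribosomes translate are the 13 mitochondrially encoded ones. Of these 3 were higher and 1 lower in Chinese wild boar than in Large White (2.99% and 3.71% of expressed genes), with a median log2 fold of 0.33. For Enshi black over Large White 0 were higher and 1 lower (4.73% and 8.36%; median 0.05), and for Enshi black over Chinese wild boar 0 and 2 (3.98% and 7.17%; median -0.15). ND1, ND2 and ND6, of the first respiratory complex, were the higher ones, and ATP8 the lower one against Large White in both other libraries, while ND1 and ND2 were lower in Enshi black than in Chinese wild boar. The complex did not move as a whole. For Chinese wild boar over Large White, ND3 had an interval above 1, at a fold of 1.51. ND4, ND4L and ND5 had intervals below 1, at folds of 0.917, 0.750 and 0.906. Of the 13 genes, 8 had intervals above 1 in that pair and 5 below, where 31.2% and 30% of expressed genes did. Most of these genes have many counts, such as 115951 for COX1 in Large White. Small folds then clear an interval that covers counting error only. ND1 had 1342 CPM in Enshi black, 3609 CPM in Chinese wild boar and 1323 CPM in Large White, ND2 728 CPM in Enshi black, 3074 CPM in Chinese wild boar and 1249 CPM in Large White and ND6 105 CPM in Enshi black, 154 CPM in Chinese wild boar and 52.1 CPM in Large White. ATP8, whose gene overlaps ATP6, was at 8.9 CPM in Enshi black, 6.13 CPM in Chinese wild boar and 32.9 CPM in Large White. ATP6 went the other way, at 6198 CPM in Enshi black, 7067 CPM in Chinese wild boar and 5613 CPM in Large White. Its intervals against Large White lay above 1 in both other libraries. Reads on overlapping features were set apart as ambiguous, and their part in the ATP8 counts was not tested.

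The shift toward Chinese wild boar was not shown to be particular to ribosome and import genes. For Chinese wild boar over Large White, 49 expressed nuclear genes of oxidative phosphorylation had a median log2 fold of 0.43 and 26 cytosolic ribosomal protein genes one of 0.74, against 0.40 for the genes described here. Chinese wild boar was the lowest library for 1 of 49 and 1 of 26 of them. For Enshi black over Large White the medians were 0.30 and 0.50, against 0.09 here. The differences between these groups were not tested.

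**Figure D4:**
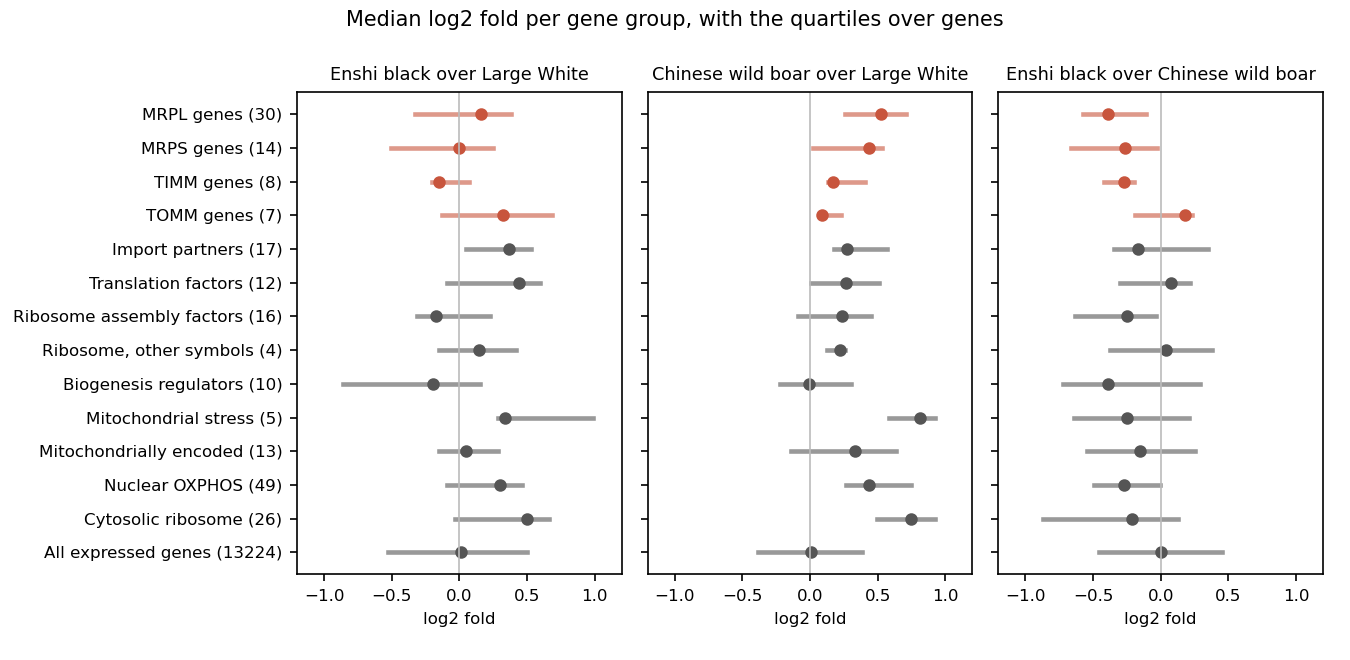
Median log2 fold (points) and quartiles over genes (bars) for the 4 groups described (red) and for related groups and all expressed genes (grey), with the number of expressed genes in brackets. For Chinese wild boar over Large White the group medians lie between -0.01 (biogenesis regulators) and 0.81 (mitochondrial stress genes), against 0.01 for all expressed genes.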

How the data were processed

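The authors deposited 1 table of whole-number read counts per library, not normalized, per the file headers. Per the submitters' processing notes the build was Sscrofa10.2 and the tools were HTSeq 0.6.1, edgeR 3.16.3 and TopHat2 2.1.0. The strand setting, the annotation release and the handling of multi-mapping reads are not given in the sources used. Reads on overlapping features were set apart in the files as ambiguous (1.89% in Enshi black, 2.49% in Chinese wild boar, 2.18% in Large White), and reads on no feature made up 19.0%, 18.9% and 22.0%. The 5 rows that name no gene were left out. Values of genes that have copies or overlap others are uncertain.

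Symbols were matched by gene ID for 11804 of 25322 IDs. Counts were scaled with TMM factors (1.04 for Enshi black, 0.976 for Chinese wild boar, 0.981 for Large White) with R 4.3.3 and edgeR 4.0.16, and the 13224 genes that reached 1 CPM in any library were kept. A single count corresponded to 0.0464, 0.0507 and 0.0510 CPM. Folds carry 95% exact conditional binomial intervals, computed with Python 3.11.15 and scipy 1.17.1. There are no molecular identifiers in the labels, so intervals cover counting error only. Log2 folds use a prior count of 2. On simulated data with counting noise only, the size rule recovered 90, 91 and 92 of 100 genes raised 4-fold, and 94, 94 and 92 of 100 lowered 4-fold, in the 3 comparisons over 13224 genes.

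The gene lists were chosen with earlier results of these data known. The named genes were to include those passing the size rule, channel and receptor subunits, and genes near the rule. Coding lengths were not used here, so levels are not compared between genes, and the other genes were named after their values were seen. Alternatives were DESeq2 1.42.0 size factors, total counts, other filters, bounds and intervals, assumed variation between animals, and centring by span.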

Additional observations from a re-analysis of the deposited data

How the results depend on the processing

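Counts of genes past the size rule are given for Enshi black over Large White, Chinese wild boar over Large White and Enshi black over Chinese wild boar. Main counts were 0 higher and 2 lower, 0 and 0, and 0 and 3. With total counts 1 gene (TIMM8A) was higher for Enshi black over Large White, and with centring by span, chosen after seeing the data, 2 were (TIMM8A and TOMM7, at 2.48-fold and 2.31-fold). With a bound of 1.5 the counts were 7 higher and 6 lower, 7 and 0, and 1 and 11. With a bound of 4, and with 0.2 or 0.4 assumed as the coefficient of variation between animals, 1 gene (MRPL55) was lower for Enshi black over Large White, and with 0.4 it was the 1 gene lower than in Chinese wild boar. Without IDs near 0 in 1 library, also chosen after seeing the data, 1 gene (MRPS18B) was lower in Enshi black than in Large White. Medians kept their sign under every scaling, filter and prior count tried, but the mean for Enshi black over Large White was -0.07 in place of 0.09. That median was 0.18 with total counts and 0.17 with centring by span. The one for Enshi black over Chinese wild boar was -0.20 with total counts, -0.18 with centring by span and -0.43 as a mean, against -0.29. Both means include MRPL55, with log2 folds of -7.10 against Large White and -7.03 against Chinese wild boar. Of 177 member folds, DESeq2 size factors changed no call. The planned centring by coding length was not run. No paired analysis was possible because each breed has 1 library. With 1 library per breed, leaving out a replicate was not possible either.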
